A study of Mus musculus with 18 samples.

Results

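Transcripts of 7 genes that set how T cells handle diacylglycerol were followed across the 18 libraries of the series: the diacylglycerol kinases *Dgka*, *Dgkz*, *Dgkd*, *Dgke* and *Dgkh*, and the exchange factors *Rasgrp1* and *Rasgrp2*. The members were chosen by name, with earlier results of these data known. All 7 were found among the 55284 named entries of the count table. All 7 also passed the filter on low counts that left 33795 genes to be tested. Every library came from CD4+CD25– T cells of spleen and lymph node, on a C57BL/6 background, sorted from bone marrow chimeras in which irradiated BoyJ hosts had been reconstituted with WT marrow and a minority of *Nr4a1*-/- *Nr4a3*-/- (DKO) marrow. Naive cells were CD44lo CD73lo FR4lo, anergic cells were CD44hi CD73hi FR4hi, and stimulated cells were sorted naive cells held for 3 hours on plates coated with anti-CD3 (8 μg/mL) in the presence of anti-CD28 (2 μg/mL). Each of the 6 groups (WT and DKO, naive, anergic and stimulated) had 3 libraries, 1 from each of chimeras 10, 11 and 12.

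The DKO alleles were germline, so cells of every lineage that came from DKO marrow lacked both receptors, and the anergic cells had acquired their surface phenotype in the host, not in a dish. WT and DKO cells of 1 chimera shared a host, and the fit carried the chimera as a block. The 3 chimeras are the replicates. With the block, the p-values measure how group differences vary between chimeras, not the spread of the chimeras themselves.

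When the T cell receptor is engaged, phospholipase C-γ1 cleaves a membrane phosphoinositide into inositol trisphosphate and diacylglycerol. Diacylglycerol recruits RasGRP1, the main Ras guanine nucleotide exchange factor of T cells, together with protein kinases C and D. Diacylglycerol kinases end the signal by phosphorylating diacylglycerol to phosphatidic acid, and DGKα and DGKζ are the members best known for restraining Ras and ERK in T cells and for their part in anergy. RasGRP2 is instead an exchange factor for Rap1, which controls integrin adhesion.

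Libraries held 16122020 to 39752234 counts. *Nr4a1* and *Nr4a3* were still read in DKO cells, for example at 79.2 to 107 TPM for *Nr4a1* in DKO naive libraries against 74.8 to 89.8 in WT naive libraries. Since a gene count includes exons outside the disrupted part, these counts do not check the genotype. The sort gate could be read in the RNA: *Izumo1r*, which encodes FR4, averaged 59.6 TPM in WT naive and 1980 TPM in WT anergic libraries, and *Nt5e*, which encodes CD73, 12.4 and 478 TPM. All 6 markers of CD4 T cells were read in every group. Chimera 12 gave 2 WT libraries that stood apart, the naive one with 807 and the stimulated one with 572 CPM on olfactory and vomeronasal receptor genes against 1417 to 3253 CPM in the other 16 libraries. On the TMM scale the WT stimulated library of chimera 12 also read high for all 7 members, and values without it are given where it moves a result.

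The sequences just before a transcription start are shown for *Rasgrp1* and *Dgkd*, the pair of members whose levels ran closest together after *Dgka* and *Rasgrp2*, and for *Dgkz*, the member that took a course of its own. They are from RefSeq on GRCm38 (mm10), written 5′ to 3′ on the strand of the gene, with any match to the motifs searched in capitals. *Rasgrp1* is on the minus strand and its sequence covers chr2:117343002-117343127, the part of its window that lies outside the gene as GENCODE annotates it, *Dgkd* is on the plus strand with chr1:87853037-87853286, and *Dgkz* is on the minus strand with chr2:91963564-91963813, before a start that lies inside the annotated span of the gene.
Rasgrp1: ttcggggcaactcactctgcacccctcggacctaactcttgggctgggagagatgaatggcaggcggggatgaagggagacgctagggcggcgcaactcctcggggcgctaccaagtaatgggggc
Dgkd: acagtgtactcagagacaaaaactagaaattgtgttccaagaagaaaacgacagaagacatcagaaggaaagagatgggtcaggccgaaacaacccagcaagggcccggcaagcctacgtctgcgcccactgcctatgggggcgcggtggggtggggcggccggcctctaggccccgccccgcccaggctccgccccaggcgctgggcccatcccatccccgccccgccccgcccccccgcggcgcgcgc
Dgkz: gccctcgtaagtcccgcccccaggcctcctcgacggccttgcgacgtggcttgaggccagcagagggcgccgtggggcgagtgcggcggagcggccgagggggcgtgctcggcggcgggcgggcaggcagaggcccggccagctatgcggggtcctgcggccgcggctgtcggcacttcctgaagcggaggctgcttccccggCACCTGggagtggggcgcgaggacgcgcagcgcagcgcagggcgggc

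All 3 sequences were rich in G and C, at 63.5% for *Rasgrp1*, 67.2% for *Dgkd* and 77.6% for *Dgkz*. The 4 motifs named next were searched on both strands in windows of 250 bases before to 50 after each RefSeq start, which gave 14 windows for the 7 members. The NR4A monomer site AAAGGTCA was in 0 of the 14 and in 1.51% of 32851 windows of all genes, the EGR site GCGTGGGCG in 0 and 0.612%, and the FOXO site GTAAACA in 0 and 3.65%. The E-box CACCTG was in 3 of the 14, 1 each of *Dgkz*, *Rasgrp1* and *Dgke*, and in 20.2% of all windows. In *Dgkz* it lay at position −47 from the start, in capitals above, and in *Rasgrp1* at −58 on the opposite strand, outside the stretch shown. The 4 strings are not contained in one another, and a match is a string of letters, not a bound site.

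In naive WT cells *Dgka* was the most abundant member by far. Levels are the deposited transcript abundances in TPM, which are scaled to gene length and can be set side by side between genes. Mean TPM in WT naive cells was 1770 ± 45 (SD, n = 3 chimeras) for *Dgka*, 419 for *Rasgrp1*, 323 for *Dgkz*, 208 for *Dgkd*, 76.9 for *Rasgrp2*, 18.7 for *Dgke* and 3.42 for *Dgkh*. *Dgka* thus made up 74.9% to 75.7% of the summed TPM of the 10 DGK genes listed, *Dgkz* 13% to 14.6% and *Dgkd* 8.77% to 8.96%. DKO naive cells had the same order, with *Dgka* at 74.6% to 77.1% of the sum.

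**Figure D1:**
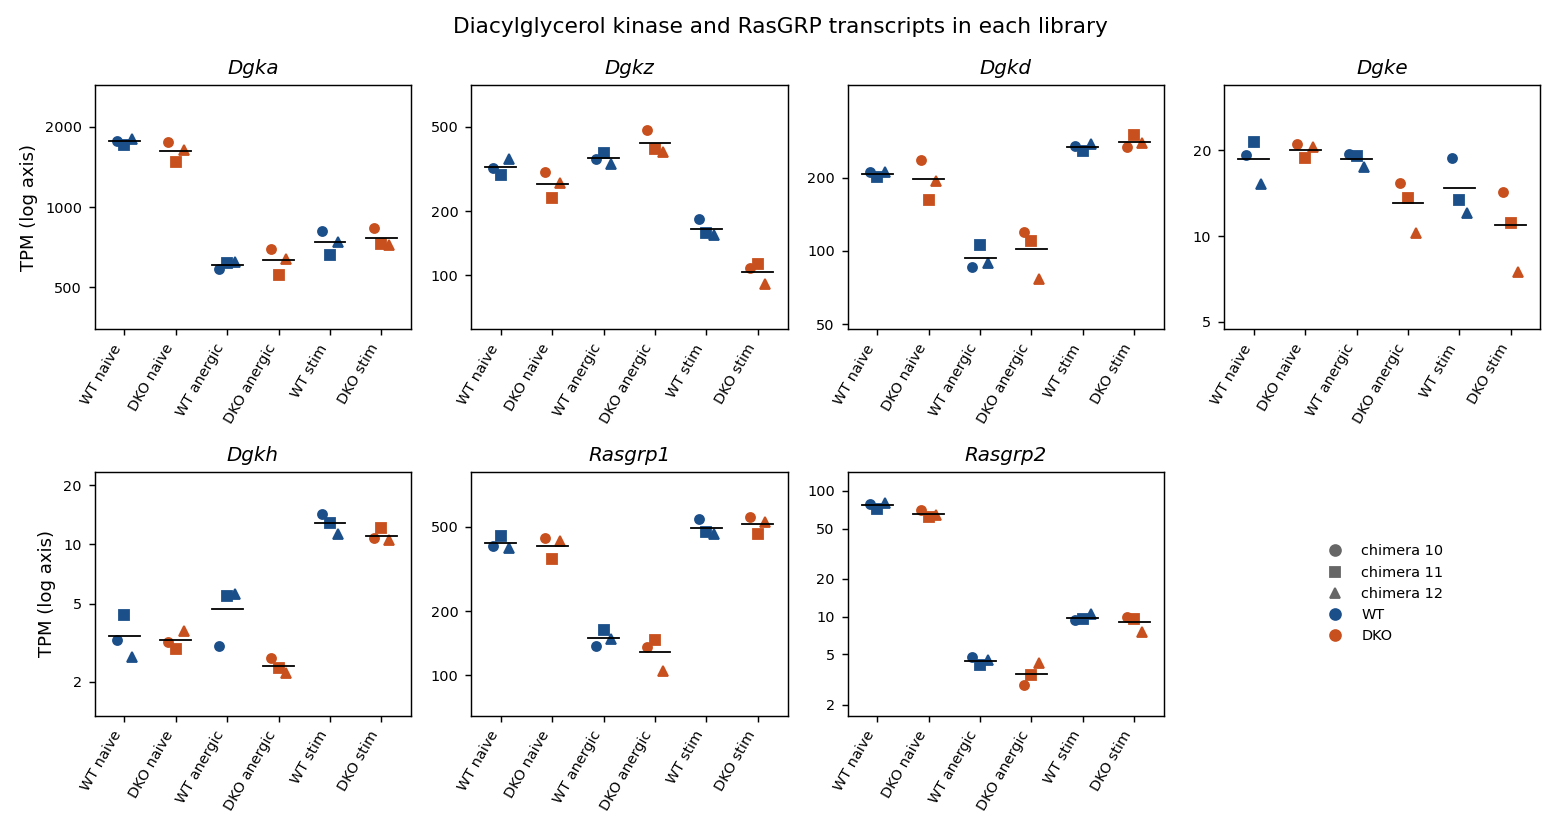
TPM of each member (log axis) in every library, by group. Points are libraries, marked by chimera and coloured by genotype, and bars are means of 3 chimeras. *Dgka*, *Rasgrp1*, *Dgkd* and *Rasgrp2* sat lower in anergic than in naive cells, while *Dgkz* was lowest in the stimulated groups, with a mean of 104 TPM in DKO cells.

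The first question was which of these genes differ between anergic and naive cells. In WT cells, *Dgka*, *Dgkd*, *Rasgrp1* and *Rasgrp2* were lower in the anergic state, and *Dgkz*, *Dgke* and *Dgkh* did not pass the test. That was 4 of 7 members past an adjusted p of 0.05, all lower, against 9.82% of the 33795 genes tested in either direction and 4.71% in the lower direction. The members' median log2 fold change was −1.38, and that of all genes tested was 0.26. Many genes tested had low counts, and the median of the 15067 genes with a logCPM over 1 was 0.00453. The values below are those of chimeras 10, 11 and 12, in that order.

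*Dgka*, which encodes the calcium-binding kinase DGKα, had 1774, 1717 and 1806 TPM in WT naive libraries and 588, 615 and 624 TPM in WT anergic ones. The groups did not overlap, as for 28% of all genes tested, and the 3 anergic libraries lay close together. The log2 fold change was −1.76 ± 0.26 (SE), 3.38-fold lower, with an edgeR adjusted p of 2.79e-05, and it was lower in 3 of 3 chimeras. In DKO cells *Dgka* had 1748, 1482 and 1645 TPM in naive and 700, 554 and 640 TPM in anergic libraries. Again the groups did not overlap, as for 39% of all genes tested in DKO cells. That change was −1.24 ± 0.26 (SE, adjusted p = 0.00169), and it missed the threshold without chimera 10 (adjusted p = 0.104) or without chimera 11 (adjusted p = 0.163).

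*Rasgrp1* had 406, 452 and 399 TPM in WT naive and 138, 162 and 149 TPM in WT anergic libraries. Every anergic library was far below every naive one, in a comparison where 28% of all genes tested did not overlap. The log2 fold change was −1.71 ± 0.26 (SE, 3.27-fold lower, edgeR adjusted p = 3.11e-05). DKO libraries had 441, 352 and 428 TPM when naive and 136, 146 and 105 TPM when anergic. This fall was −1.51 ± 0.26 (SE, 2.85-fold, adjusted p = 0.000141), again in 3 of 3 chimeras. Across the 11 alternative fits the adjusted p of *Rasgrp1* ran up to 0.00767 in WT and 0.0244 in DKO cells, so the call held in all of them.

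*Rasgrp2* fell furthest. WT naive libraries had 79.0, 71.5 and 80.2 TPM and WT anergic libraries 4.74, 4.14 and 4.54 TPM. DKO naive libraries had 70.7, 61.6 and 64.1 TPM and DKO anergic libraries 2.88, 3.40 and 4.30 TPM. Its log2 level changed by −4.33 ± 0.27 (SE, 20.2-fold lower, adjusted p = 1.77e-11) in WT and −4.10 ± 0.27 (SE, 17.2-fold lower, adjusted p = 3.09e-11) in DKO cells. Even the lowest anergic library held 319 counts, so the low level was measured and not at the floor. The ratio of *Rasgrp1* to *Rasgrp2* TPM was 4.97 to 6.32 in WT naive and 29.1 to 39.2 in WT anergic libraries.

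*Dgkd*, which encodes the type II kinase DGKδ, had 211, 201 and 212 TPM in WT naive and 85.7, 105 and 89.2 TPM in WT anergic libraries. It was lower by 1.38 ± 0.28 (SE) on the log2 scale, 2.6-fold, with an adjusted p of 0.00124 and in 3 of 3 chimeras. DKO libraries had 236, 163 and 195 TPM when naive and 119, 110 and 76.5 TPM when anergic. There the change was −0.81 ± 0.28 (SE) and missed the threshold (edgeR adjusted p = 0.0747). The groups did not overlap, as for 39% of all genes tested. Of the 11 alternatives 5 put the change past the threshold, with an adjusted p from 0.000156 to 0.518 over all of them.

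*Dgkz*, which encodes DGKζ, did not share the fall. It had 322, 296 and 353 TPM in WT naive and 355, 378 and 334 TPM in WT anergic libraries, and these ranges overlapped. The log2 fold change was −0.09 ± 0.25 (SE, 95% interval −0.61 to 0.43, adjusted p = 0.872), a range that leaves out a fall of the size seen for *Dgka*. Its sign turned in 4 of 11 alternatives. In DKO cells *Dgkz* had 305, 230 and 272 TPM when naive and 483, 395 and 383 TPM when anergic. The groups did not overlap, as for 39% of all genes tested, and each anergic library was above each naive one. That difference was 0.78 ± 0.25 (SE, 1.72-fold) with an adjusted p of 0.051, just outside the threshold, and it lay inside in 7 of 11 alternatives, among them the fit without the chimera block (adjusted p = 0.0424) and that without the 2 WT libraries of chimera 12 that stood apart (adjusted p = 0.000304). Over all 11 the adjusted p ran from 1.87e-05 to 0.624.

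The remaining kinases were scarce. *Dgke*, the isoform that prefers arachidonoyl diacylglycerol, averaged 18.7 TPM in WT naive and 18.6 TPM in WT anergic cells, with a log2 fold change of −0.22 (adjusted p = 0.622). *Dgkh*, which encodes DGKη, another type II kinase, averaged 3.42 and 4.68 TPM, with a log2 fold change of 0.21 (adjusted p = 0.659). In DKO cells *Dgke* averaged 20.1 TPM when naive and 13.1 TPM when anergic (adjusted p = 0.188), and *Dgkh* 3.24 and 2.39 TPM (adjusted p = 0.551). For both genes, as for all 7 members, the DKO groups did not overlap, which also held for 39% of all genes tested in that comparison.

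In all, 3 of 7 members passed in DKO anergic over DKO naive cells, all lower, against 9.42% of genes tested in either direction and 2.76% in the lower direction. The members' median was −0.81, that of all genes −0.21 and that of genes with a logCPM over 1 was 0.0354. WT and DKO share no library between these 2 comparisons. The difference between the genotypes in the anergic over naive change was tested as an interaction, which no member passed (0 of 7, against 0.385% of all genes). By edgeR 1 member, *Dgkz*, had an unadjusted p under 0.05, DESeq2 called 0 and had 2 at an unadjusted p under 0.05.

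**Figure D2:**
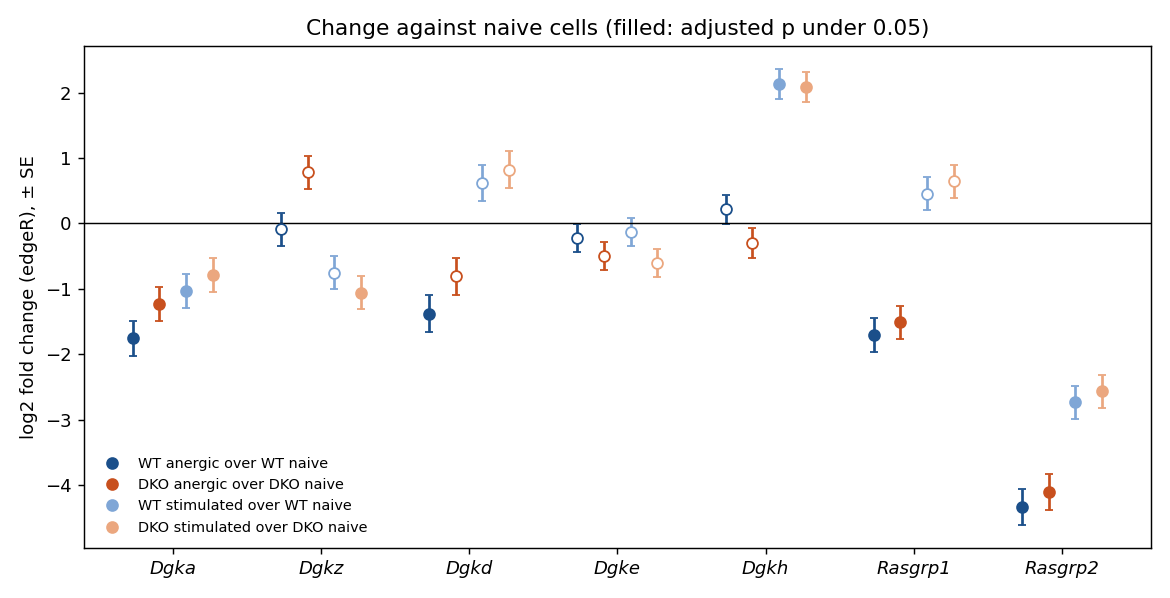
Log2 fold change against naive cells of the same genotype for the 7 members, with the standard error of the edgeR fit and filled points where the adjusted p was under 0.05. *Rasgrp2* was the furthest below 0 in all 4 comparisons (−4.33 in WT anergic cells), and *Dgkh* the furthest above in stimulated cells (2.13 in WT).

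With *Dgka* lower and *Dgkz* not called, the make-up of the DGK transcripts differed between naive and anergic cells. Shares within a library do not depend on how libraries were scaled. *Dgkz* made up 30.2% to 32.8% of the summed DGK TPM in WT anergic libraries and 33.3% to 35.5% in DKO anergic libraries, against 13% to 14.6% and 12% to 13% in naive ones. The summed DGK TPM itself averaged 2340 in WT naive and 1110 in WT anergic cells. The ratio of *Dgka* to *Dgkz* was 5.12 to 5.81 in WT naive and 1.62 to 1.87 in WT anergic libraries, with no overlap. The ratio of *Rasgrp1* to the sum of *Dgka* and *Dgkz* differed far less, at 0.185 to 0.225 in WT naive and 0.146 to 0.164 in WT anergic libraries, *Rasgrp1* and *Dgka* being lower together. In DKO cells it was 0.205 to 0.223 when naive and 0.102 to 0.153 when anergic. With 3 libraries against 3, an exact permutation test of such a ratio cannot go below p = 0.1, so none was run.

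**Figure D3:**
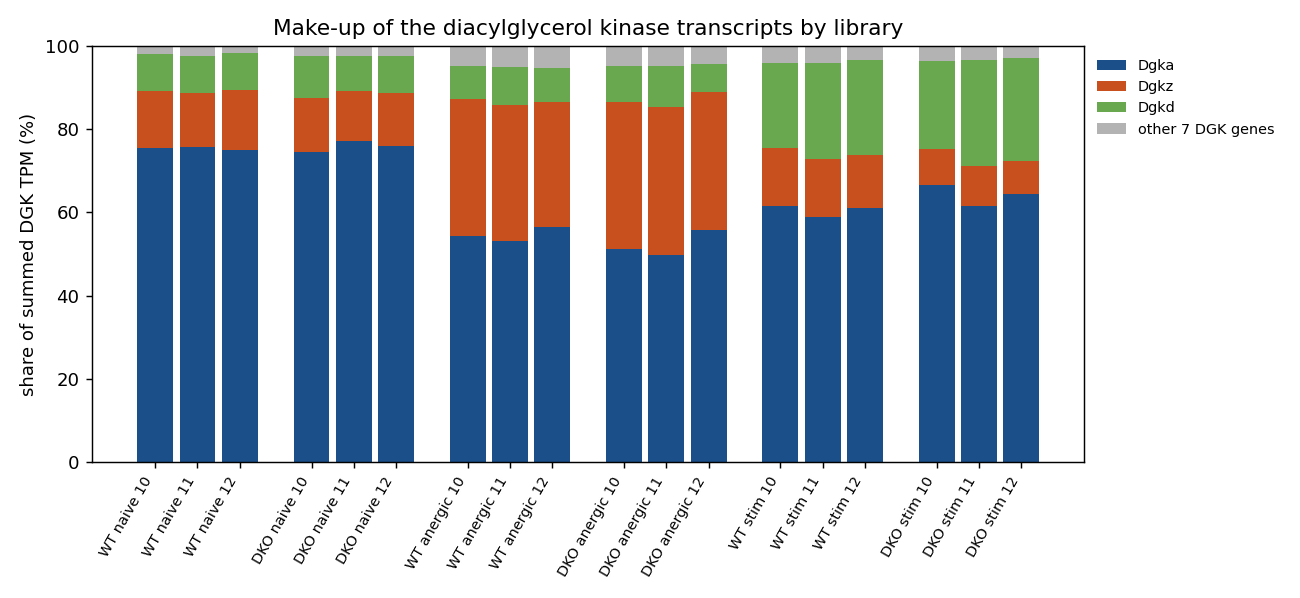
Share (%) of the summed TPM of 10 DGK genes taken by *Dgka*, *Dgkz*, *Dgkd* and the other 7, 1 bar for each library. *Dgkz* took 12% to 14.6% of the sum in naive and 30.2% to 35.5% in anergic libraries, and *Dgkd* 20.5% to 25.4% in stimulated ones.

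The anergic libraries of both genotypes also carried transcripts listed as markers of regulatory T cells (Treg), with a higher sum in WT cells. All 8 markers listed for that cell type passed the test as higher in WT anergic than WT naive cells and none was at 0, with a summed level of 1200 to 1600 TPM in WT anergic libraries, 343 to 419 in DKO anergic, 27.7 to 48.9 in WT naive and 31.6 to 39.1 in DKO naive libraries. *Foxp3*, the defining factor, averaged 492 TPM in WT and 19.7 TPM in DKO anergic cells. In DKO anergic over DKO naive cells 7 of the 8 Treg markers passed as higher and 0 as lower. The DKO anergic sum was led by *Nrp1* (mean 244 TPM, with 220 in WT anergic cells) and *Ikzf2* (57.7 TPM, with 116 in WT). There *Lrrc32* averaged 6.04 TPM and *Il2ra* 5.33 TPM, and *Ikzf4* had 4.37 TPM against 4.94 TPM in DKO naive cells. In DKO over WT anergic cells 6 of the 8 Treg markers passed as lower and 0 as higher. The 6 B cell markers summed to 65.4 to 89.6 TPM in anergic and 19.1 to 34.2 TPM in naive libraries, with 2 of 6 higher in WT anergic over naive cells, and 3 higher and 1 lower in DKO cells. In WT cells these were *Cd22*, at a mean of 0.401 TPM in naive and 35.9 TPM in anergic libraries, and *Cd79b*, at 1.64 and 19.2 TPM, while *Cd79a* had 16.9 and 12.1 TPM (adjusted p = 0.193). The 7 myeloid markers summed to 35.3 to 58.8 TPM in anergic and 14.6 to 31.1 TPM in naive libraries, with 0 higher and 1 lower in WT and 1 higher and 0 lower in DKO cells. The 6 markers of CD8 T and NK cells summed to 59.6 to 74.7 TPM in anergic, 95.6 to 112 TPM in WT naive and 118 to 122 TPM in DKO naive libraries, with 1 higher and 2 lower in each genotype. None of these markers was at 0 in any group. The part of these cells in the members' levels was not tested. In bulk RNA, fewer cells that express a gene and less of its RNA in each cell cannot be told apart.

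The second question was how the same genes differ after 3 hours of stimulation of naive cells. In WT cells *Dgkh* was higher and *Dgka* and *Rasgrp2* lower, which is 3 of 7 members, against 11.9% of the genes tested (7.13% higher and 4.79% lower). In DKO cells these 3 passed in the same directions and *Dgkz* passed as lower, which is 4 of 7 against 14.1% (8.34% higher and 5.73% lower). Median log2 fold changes of the members were −0.13 and −0.61, beside 0.03 and −0.36 over all genes. Over genes with a logCPM over 1 they were 0.0603 and −0.153. These comparisons use the same naive libraries as the anergic ones.

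*Dgkh* had 3.25, 4.36 and 2.67 TPM in WT naive and 14.3, 12.8 and 11.3 TPM in WT stimulated libraries. It was thus 4.38-fold higher (log2 2.13 ± 0.23 SE, edgeR adjusted p = 3.88e-07), with no overlap, as for 25.2% of all genes tested. DKO libraries had 3.16, 2.94 and 3.61 TPM when naive and 10.8, 12.1 and 10.5 TPM when stimulated, a log2 fold change of 2.09 ± 0.23 (SE, adjusted p = 4.9e-07). This call held in all 11 alternatives in both genotypes. *Dgkh* was nevertheless still scarce, at a mean of 12.8 TPM in WT and 11.1 TPM in DKO stimulated cells, next to 739 and 763 TPM for *Dgka*.

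*Rasgrp2* had 9.38, 9.52 and 10.5 TPM in WT stimulated and 9.98, 9.58 and 7.49 TPM in DKO stimulated libraries, all far under the naive level. Against naive cells this was a log2 difference of −2.73 ± 0.26 (SE, 6.65-fold lower, adjusted p = 3.14e-08) in WT and −2.57 ± 0.25 (SE, 5.92-fold lower, adjusted p = 6.99e-08) in DKO cells. *Dgka* had 815, 663 and 739 TPM in WT stimulated and 838, 729 and 723 TPM in DKO stimulated libraries, with no overlap with the naive groups, as for 25.2% of all genes tested in WT and 53.3% in DKO cells. Its change was −1.03 ± 0.26 (SE, adjusted p = 0.0077) in WT and −0.79 ± 0.26 (SE, adjusted p = 0.0409) in DKO cells.

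The *Dgka* calls after stimulation depended on the processing. In WT cells the adjusted p was 0.0536 with RLE factors, 0.295 without chimera 10 and 0.282 without chimera 11. In DKO cells it was 0.362 with RLE factors, 0.171 with DESeq2, 0.648 without chimera 10 and 0.443 without chimera 11. The direction was lower in every one of the 11 alternatives. Without the 2 WT libraries of chimera 12 the WT change was −1.15 (adjusted p = 7.3e-05).

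*Dgkz* had 184, 158 and 155 TPM in WT stimulated libraries, each below each naive library. The groups did not overlap, as for 25.2% of all genes tested. The log2 fold change was −0.75 ± 0.25 (SE), with an adjusted p of 0.0513, just outside the threshold, and 7 of 11 alternatives put it inside (0.0412 without the chimera block, 0.00629 without the 2 WT libraries of chimera 12 that stood apart). Over all 11 the adjusted p ran from 5.42e-06 to 0.585. DKO stimulated libraries had 109, 113 and 91.1 TPM. There it was lower by 1.06 ± 0.25 (SE) on the log2 scale, 2.08-fold, with an adjusted p of 0.00417, which rose to 0.117 with RLE factors, 0.304 without chimera 10 and 0.0799 without chimera 11.

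*Dgkd* and *Rasgrp1* lay above their naive levels and missed the threshold. *Dgkd* had 271, 259 and 276 TPM in WT stimulated and 269, 300 and 278 TPM in DKO stimulated libraries, with log2 fold changes of 0.61 (adjusted p = 0.205) and 0.82 (adjusted p = 0.0513). *Rasgrp1* had 543, 472 and 460 TPM and 557, 462 and 524 TPM, with log2 fold changes of 0.45 (adjusted p = 0.37) and 0.65 (adjusted p = 0.101). Both genes were higher in 3 of 3 chimeras in both genotypes, and in DKO cells the change of *Dgkd* passed in 9 and that of *Rasgrp1* in 6 of 11 alternatives. Without the 2 WT libraries of chimera 12 the WT changes were 0.46 for *Dgkd* (adjusted p = 0.277) and 0.34 for *Rasgrp1* (adjusted p = 0.451). *Rasgrp1* TPM did not overlap between stimulated and naive libraries of either genotype, as for 25.2% of all genes tested in WT and 53.3% in DKO cells, while WT anergic libraries held a mean of 150 TPM against 419 TPM in WT naive ones.

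The ratio of *Rasgrp1* to the sum of *Dgka* and *Dgkz* was 0.515 to 0.576 in WT stimulated and 0.549 to 0.644 in DKO stimulated libraries. Every stimulated library was above every naive one, and every naive one above every anergic one. The share of *Dgkd* in the DGK sum was 20.5% to 23% in WT stimulated and 21.3% to 25.4% in DKO stimulated libraries, against 8.47% to 10.1% in naive ones of either genotype. *Dgke*, at a mean of 14.7 TPM in WT and 10.9 TPM in DKO stimulated cells, passed in neither genotype (adjusted p = 0.932 and 0.0574).

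**Figure D4:**
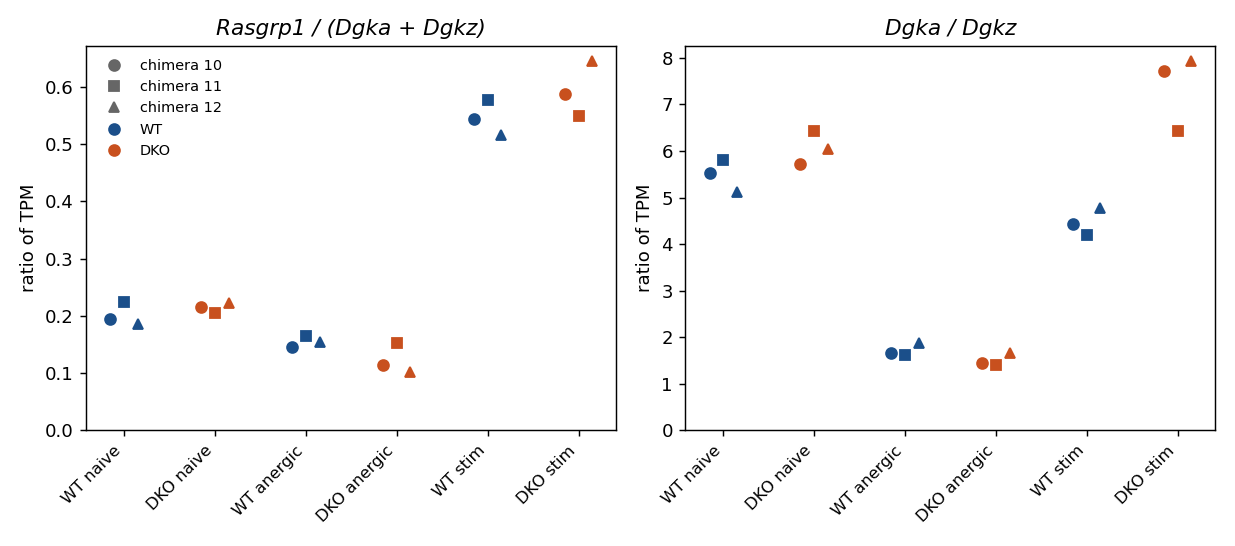
Ratio of *Rasgrp1* to summed *Dgka* and *Dgkz* TPM (left) and of *Dgka* to *Dgkz* TPM (right) in every library, marked by chimera and coloured by genotype, both axes from 0. The left ratio was 0.102 to 0.164 in anergic, 0.185 to 0.225 in naive and 0.515 to 0.644 in stimulated libraries, and on the right the stimulated DKO libraries (6.43 to 7.93) lay above the stimulated WT ones (4.2 to 4.78).

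The third question was whether the members differ between DKO and WT cells of 1 state. None passed in anergic (0 of 7, against 1.34% of genes tested), naive (0 of 7, against 0.0947%) or stimulated cells (0 of 7, against 0.216%) by edgeR. A missing call does not show equal levels. In counts simulated for the anergic comparison, edgeR called 16.3% of genes with a logCPM over 1 and a true log2 change of 1. At an unadjusted p under 0.05 there was 1 member in anergic cells (*Dgkh*), 0 in naive and 2 in stimulated cells (*Dgkz* and *Dgke*). DESeq2 called 0 in each, with 1 member at an unadjusted p under 0.05 in each. Nor did any pass as a genotype difference in the stimulated over naive change (0 of 7, against 0.00296% of genes tested, with 0 at an unadjusted p under 0.05 by edgeR and by DESeq2).

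*Dgkz* gave the widest genotype differences among the abundant members. In stimulated cells it had 184, 158 and 155 TPM in WT and 109, 113 and 91.1 TPM in DKO libraries, and the groups did not overlap, as for 9.03% of all genes tested. The log2 fold change was −0.70 ± 0.25 (SE, 95% interval −1.22 to −0.18), lower in 3 of 3 chimeras (−0.49, −0.35 and −1.18), but its adjusted p was 0.923. On this scale the widest difference was that of chimera 12, whose WT stimulated library stood apart and had the lowest TMM factor (0.55). In TPM, chimeras 10 and 12 differed by a similar factor, at 184 against 109 and 155 against 91.1. Without the 2 WT libraries of chimera 12 the estimate was −0.35 (adjusted p = 0.496), and without all libraries of chimera 12 it was −0.40 (adjusted p = 0.623). With limma on log2(TPM + 1) it was −0.66 with an adjusted p of 0.00608, the 1 alternative of 11 that put it past the threshold. The share of *Dgkz* in the DGK sum was 12.8% to 14% in WT stimulated and 8.11% to 9.58% in DKO stimulated libraries.

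In anergic cells the difference ran the other way. *Dgkz* had 355, 378 and 334 TPM in WT and 483, 395 and 383 TPM in DKO anergic libraries, which did not overlap, as for 23.7% of all genes. The log2 fold change was 0.47 ± 0.25 (SE, 95% interval −0.05 to 0.99, adjusted p = 0.667), higher in 3 of 3 chimeras. In naive cells it was −0.40 ± 0.25 (SE, edgeR adjusted p = 0.767), lower in 3 of 3 chimeras. Median log2 fold changes of genes with a logCPM over 1 were 0.16 in anergic, −0.0763 in naive and −0.0584 in stimulated cells. A contrast of the anergic against the stimulated genotype difference was chosen after these values had been seen. It gave 1.18 ± 0.36 (SE, 95% interval 0.44 to 1.91) on the log2 scale with an edgeR adjusted p of 0.275. Of all genes 0.479% passed it, and genes with a logCPM over 1 had a median of 0.241. Over the 11 alternatives of the contrast the adjusted p ran from 0.00591 to 0.982. It was 0.0228 with TMM factors from genes with a logCPM over 1 and 0.139 without the 2 WT libraries of chimera 12 that stood apart, where the difference was 0.82.

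**Figure D5:**
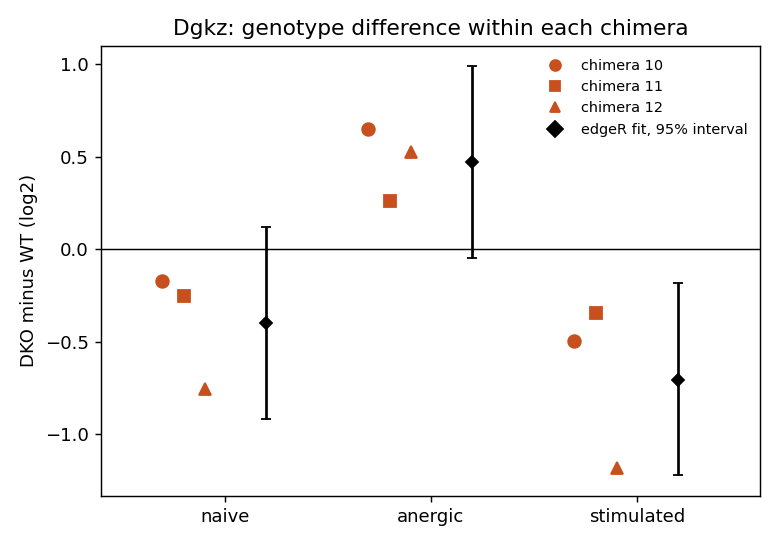
DKO minus WT difference of *Dgkz* (log2 CPM) within each chimera, with the edgeR estimate and its 95% interval (diamonds), in naive, anergic and stimulated cells. The 3 chimeras lay below 0 in naive and stimulated cells and above 0 in anergic cells, where the interval ran from −0.05 to 0.99.

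For *Dgka*, *Dgkd*, *Rasgrp1* and *Rasgrp2* the genotype differences were small against their intervals. In anergic cells the log2 fold change was 0.28 (95% interval −0.25 to 0.81) for *Dgka*, 0.37 (−0.20 to 0.95) for *Dgkd*, 0.03 (−0.49 to 0.55) for *Rasgrp1* and −0.12 (−0.63 to 0.38) for *Rasgrp2*. These intervals leave out changes of 1 on the log2 scale in either direction, though not smaller ones. *Dgkh* had 3.02, 5.43 and 5.59 TPM in WT anergic and 2.63, 2.33 and 2.20 TPM in DKO anergic libraries. It was −0.69 ± 0.23 (SE, 95% interval −1.16 to −0.22, adjusted p = 0.217), lower in 2 of 3 chimeras, with chimera 10 at 0.006 on the log2 scale, and 3 of 11 alternatives put it past the threshold (0.0194 without the 2 WT libraries of chimera 12).

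Ordered by level, *Dgka* ran from WT naive over DKO naive, DKO stimulated, WT stimulated and DKO anergic to WT anergic cells (1770, 1630, 763, 739, 631 and 609 TPM), and only DKO naive and DKO stimulated, as neighbours, did not overlap. *Dgkz* ran from DKO anergic (420 TPM) over WT anergic, WT naive, DKO naive and WT stimulated to DKO stimulated cells (104 TPM), and here just 2 neighbouring pairs overlapped, WT anergic with WT naive and WT naive with DKO naive. *Dgkd* was highest in stimulated, then in naive, then in anergic cells, and within each state the genotypes overlapped. Over the 18 libraries the log2(TPM + 1) of *Dgka* and *Rasgrp2* had a Pearson r of 0.98, that of *Dgkd* and *Rasgrp1* 0.965, and that of *Dgkz* and *Dgkh* −0.849. These are descriptions over 18 libraries that share 3 hosts and fall into 6 groups.

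Among 9699 genes with a mean of at least 10 TPM, those most like *Dgka* over the 18 libraries were *Rtn4rl1* (r = 0.991), 4930523C07Rik (0.987) and *Rasa3* (0.987). *Rasa3* encodes a GTPase-activating protein for Ras and Rap1. Those most like *Dgkz* were *Plcg1* (0.98), which encodes the phospholipase C-γ1 that makes diacylglycerol downstream of the T cell receptor, *Rin3* (0.978) and *Zbtb14* (0.976). Those most like *Rasgrp1* were *Dcaf1* (0.983), *Rap1b* (0.982) and *Satb1* (0.982), the last a chromatin organiser of T cells. *Plcg1* itself averaged 210 TPM in WT naive, 266 in WT anergic, 318 in DKO anergic, 126 in WT stimulated and 83.7 in DKO stimulated cells. In DKO cells it passed as higher in the anergic state (log2 0.94, adjusted p = 0.0105) and as lower after stimulation (log2 −0.82, adjusted p = 0.0214), and in WT cells it passed in neither (adjusted p = 0.824 and 0.222).

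The pathway around the members was read from lists of its other genes. The 7 further DGK and RasGRP genes were scarce: *Dgkq* averaged 11.8 to 19.1 TPM over the groups, and *Dgkb*, *Dgkg*, *Dgki*, *Dgkk*, *Rasgrp3* and *Rasgrp4* stayed under 13 TPM. In WT anergic over WT naive cells 2 of the 7 were higher and 0 lower, *Dgki* (log2 2.04, 4.15 against 1.05 TPM, adjusted p = 0.00411) and *Dgkg* (log2 1.35, 4.63 against 1.75 TPM, adjusted p = 0.0177). Both calls were lost without chimera 10, with an adjusted p of 0.0536 and 0.209. *Dgki* was the only one of the 7 to pass between genotypes, at 12.4 TPM in DKO and 4.15 TPM in WT anergic cells (log2 1.84 ± 0.45 SE, adjusted p = 0.0362, higher in 3 of 3 chimeras). That call was lost without the chimera block (0.0628), with TMM factors from genes with a logCPM over 1 (0.118), without chimera 10 (0.826) and without chimera 11 (0.317).

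Upstream, 3 of 8 phospholipase C genes passed as higher in WT anergic over WT naive cells and 0 as lower, beside 5.11% higher and 4.71% lower among all genes tested, the shares against which each list of this comparison is to be read. *Plcb4* (log2 1.99, adjusted p = 8.56e-08) and *Plcb3* (log2 1.56, adjusted p = 6.48e-05), isoforms known for coupling to G proteins, led them. Among 9 genes of protein kinases C and D, which bind diacylglycerol as RasGRP1 does, 2 were higher and 2 lower. *Prkd3* fell from 31.9 to 4.1 TPM (log2 −3.18, adjusted p = 6.36e-10), and *Prkca*, which encodes PKCα, rose from 18.4 to 82.1 TPM (log2 1.96, adjusted p = 9.16e-07). Of 10 genes of phosphatidic acid metabolism 3 were higher and 0 lower, led by *Pld2*, a phospholipase D that makes phosphatidic acid from phosphatidylcholine (log2 1.75, adjusted p = 1.65e-05), and *Plpp1*, a lipid phosphatase (log2 3.14, adjusted p = 4.76e-05).

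Downstream, in WT anergic cells, 2 of 13 genes from Ras to ERK passed as higher and 2 as lower. *Nras* was lower (log2 −1.11, adjusted p = 0.00204), a call that was lost without chimera 11 (0.0528). Of 7 Ras GTPase-activating proteins 3 were higher and 1 lower: *Rasa3* fell from 622 to 153 TPM (log2 −2.24, adjusted p = 2.24e-07), and *Dab2ip* rose from 0.266 to 2.6 TPM (log2 3.17, adjusted p = 0.000109). Of 7 genes of Rap1 and integrin activation 1 was higher and 2 lower, *Apbb1ip*, which encodes the Rap1 effector RIAM (log2 −0.87, adjusted p = 0.00337), and *Rap1b* (log2 −1.07, adjusted p = 0.00692). Both were lost without chimera 10 (0.121 and 0.133) and without chimera 11 (0.0721 and 0.095).

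After stimulation of WT cells the counts were 0 higher and 1 lower of the 7 further DGK and RasGRP genes, 0 and 1 of 8 phospholipase C genes, 3 and 2 of 9 protein kinases C and D, 2 and 1 of 13 from Ras to ERK, 3 and 3 of 7 Ras GTPase-activating proteins, 1 and 1 of 7 for Rap1 and integrins, and 0 and 0 of 10 of phosphatidic acid metabolism, beside 7.13% higher and 4.79% lower among all genes tested. The median log2 fold change ran from −0.21 to 0.77 over these lists, with 0.03 over all genes. *Prkca* rose from 18.4 to 63.7 TPM (log2 2.04, adjusted p = 8.49e-07) and *Rasa1*, which encodes p120 RasGAP, from 45.3 to 137 TPM (log2 1.79, adjusted p = 2.06e-06). *Rasa3* fell from 622 to 193 TPM (log2 −1.48, adjusted p = 8.57e-05). These 3 calls held without each chimera in turn.

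In DKO cells the anergic over naive counts, higher and lower, were 2 and 0 of the 7 further DGK and RasGRP genes, 4 and 0 of 8 phospholipase C genes, 2 and 1 of 9 protein kinases C and D, 4 and 0 of 13 from Ras to ERK, 2 and 2 of 7 Ras GTPase-activating proteins, 2 and 1 of 7 for Rap1 and integrins, and 4 and 0 of 10 of phosphatidic acid metabolism. Among all genes tested 6.65% were higher and 2.76% lower. After stimulation of DKO cells they were, in the same order, 0 and 0, 0 and 2, 3 and 2, 1 and 1, 2 and 3, 1 and 1, and 1 and 1, beside 8.34% higher and 5.73% lower among all genes tested.

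Between genotypes, the lists gave 4 calls in anergic cells (1.34% of all genes tested were called) and 0 in naive and in stimulated cells. Beside *Dgki*, *Sos2*, the second Ras exchange factor of the SOS type, was higher in DKO anergic cells (29 against 18.1 TPM, log2 0.91, adjusted p = 0.0234), as was *Prkd3* (6.68 against 4.1 TPM, log2 0.95, adjusted p = 0.036). *Rasal1*, a calcium-regulated Ras GTPase-activating protein, was lower (6.3 against 22.3 TPM, log2 −1.57, adjusted p = 0.00317). Without chimera 10 none of the 3 passed (0.701, 0.397 and 0.151), nor without chimera 11 (0.187, 0.742 and 0.0877). *Sos2* and *Prkd3* also failed with RLE factors (0.153 and 0.148).

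Counting did not use strand, so reads of a gene that overlaps a member on the other strand cannot be told from its own. The overlaps given here are of whole gene spans on either strand, so the counts do not measure shared reads. On mm10 with GENCODE vM21, *Rasgrp1* (chromosome 2, 117279993 to 117343001, minus strand) overlapped no other gene. *Dgka* (chromosome 10, 128720134 to 128744855, minus) overlapped *Pmel*, which had 155 to 779 counts a library, and *Dgkz* (chromosome 2, 91932824 to 91975864, minus) overlapped Gm9821 and Mir6999 with 0 to 220 counts. *Dgkd* (chromosome 1, 87853287 to 87945180, plus) overlapped 4 genes, among them *Usp40* with 1089 to 2626 counts. *Dgke* (chromosome 11, 89035179 to 89066850, minus) overlapped Dgkeos with 0 to 23 counts, *Dgkh* (chromosome 14, 78558750 to 78732776, minus) 3 genes with at most 41 counts each, and *Rasgrp2* (chromosome 19, 6399340 to 6415216, plus) Gm14965 with 0 to 2 counts. Against these, *Dgka* itself had 18203 to 87818 counts a library and *Dgkd* 3947 to 21772.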

How the data were processed

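The deposited counts are featureCounts values of STAR alignments (mm10) that the authors made after trimming with fastp. The deposited TPM were computed by the authors, from gene lengths not given in the sources used here, as are all tool versions. The log2 fold changes, p-values and FDR of the authors' comparison tables, deposited beside them, were not used. Libraries were made with SMART-seq v4 and Nextera XT, without strand.

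Entries with a blank name (117 of 55401, 0.0654% to 0.136% of counts) were left out. Counts were tested in R 4.3.3 with edgeR 4.0.16: filterByExpr by group, TMM factors, and glmQLFit over all 18 libraries, with a term for each of the 6 groups and for the chimera, then glmQLFTest, with Benjamini-Hochberg adjustment over 33795 genes. A change was called at an adjusted p under 0.05. The fit had a common dispersion of 0.134, with 13.9 prior degrees of freedom. The SE is the log2 fold change over the square root of F, and intervals use the t quantile of the fit's degrees of freedom. Values of a single chimera are differences in log2 CPM with a prior count of 2.

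The labels number the chimera of each library, so WT and DKO cells of 1 number shared a host. With group means removed, 9 pairs of WT and DKO libraries of 1 state and chimera correlated at −0.08 to 0.30 (median 0.04), and 45 pairs of 1 chimera at −0.39 to 0.68 (median −0.01). Within a group, libraries differed beyond counting noise (chi-square per gene 6.96 to 43.6).

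The members and gene lists were chosen with earlier results of these data known. Named genes were the members, the list genes with the smallest adjusted p, and, for *Dgka*, *Dgkz* and *Rasgrp1*, the 3 genes of highest Pearson r. Alternatives were no block, RLE factors, TMM factors from genes with a logCPM over 1, DESeq2 1.42.0, limma 3.58.1 on log2(TPM + 1), no filter, only the groups compared, and leaving out each chimera or the 2 WT libraries of chimera 12. The anergic against stimulated genotype contrast was added after values had been seen. The test was tried on counts simulated for DKO over WT anergic cells. There edgeR called 7% of genes with a true log2 change of 1 and 38% of those with a change of 2. Among genes with a logCPM over 1 these shares were 16.3% and 79.5%. It called 3 unchanged genes. DESeq2 called 13% of genes with a change of 1, 53% of those with a change of 2, and 37 unchanged genes. Promoter windows were from RefSeq (GRCm38) and coordinates from GENCODE vM21. A few genes of the lists and 1 marker of the sort gate are not reported here by name.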

Additional observations from a re-analysis of the deposited data

Results flagged for a closer look

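Genotype differences in log2 CPM were of opposite sign in every chimera for 2 of the 7 members. How many of all genes tested share this pattern was not counted. *Dgkz* was higher in DKO than WT cells in the anergic state and lower in the naive state in 3 of 3 chimeras. The difference between the 2 genotype differences was 0.87 ± 0.35 (SE) on the log2 scale, with an edgeR adjusted p of 0.451. Against the stimulated state, in which *Dgkz* was likewise lower in 3 of 3 chimeras, it was 1.18 ± 0.36 (SE), with an adjusted p of 0.275. In log2 CPM *Dgka* was higher in DKO anergic and lower in DKO naive cells in 3 of 3 chimeras. In TPM, chimera 11 went the other way in the anergic state, with 554.5 in DKO and 614.8 in WT cells. The difference for *Dgka* was 0.52 ± 0.36 (SE) on the log2 scale, with an edgeR adjusted p of 0.505. Genes with a logCPM over 1 had a median of 0.262 in this contrast of anergic against naive cells. In that of anergic against stimulated cells their median was 0.241. None of the 3 differences of these members passed the threshold.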

How the results depend on the processing

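Of 693 member values under alternatives, 586 kept their direction and side of the threshold, 48 came inside it, 12 fell outside it and 47, none of them called, changed sign. The calls of *Dgka*, *Dgkd*, *Rasgrp1* and *Rasgrp2* in WT anergic over naive cells, of *Rasgrp1* and *Rasgrp2* in DKO anergic cells, and of *Dgkh* and *Rasgrp2* after stimulation held in all 11. The cause of the changes below was not tested.

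Without the replicate block, *Dgkz* in DKO anergic (adjusted p = 0.0424) and WT stimulated cells (0.0412) and *Dgkd* in DKO stimulated cells (0.0378) came inside the threshold, *Dgki* between anergic genotypes fell outside (0.0628), and every count of calls stayed within 1.5 times. Genes called in WT anergic over naive cells were 3318, and 5563 with limma on TPM. In DKO anergic over naive cells they were 3182, with 5503 by limma, 7542 with only the groups compared and 6299 without the 2 WT libraries of chimera 12. In WT stimulated cells they were 4027, with 6067 under TMM factors from genes with a logCPM over 1 and 6325 by limma, and in DKO stimulated cells 4757, with 7333 by limma, 8338 with only the groups and 7829 without the 2 libraries. Between genotypes, anergic calls were 452, with 765 under those TMM factors, 1036 by limma, 679 with no filter, 1619 with only the groups and 1597 without the 2 libraries. Naive calls were 32, with 61 by DESeq2, 50 by limma, 72 with no filter and 16 with only the groups, and stimulated calls 73, with 179 under those TMM factors, 255 by limma, 132 with no filter, 219 with only the groups and 183 without the 2 libraries. The genotype difference in the anergic change had 130, with 260 under those TMM factors, 284 by DESeq2, 402 by limma, 488 with no filter, 221 with only the groups and 305 without the 2 libraries. That in the stimulated change had 1, with 0 under RLE factors, 4 under those TMM factors, 2 by DESeq2, 5 by limma, 10 with no filter, 0 with only the groups and 3 without the 2 libraries.

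Members called in DKO anergic over naive cells were 3, and 6 under those TMM factors, by limma, with only the groups and without the 2 libraries. In WT stimulated cells they were 3, and 6 under those TMM factors. In DKO stimulated cells they were 4, with 2 under RLE factors and 7 under those TMM factors, with only the groups and without the 2 libraries. Between anergic genotypes they were 0, and 1 (*Dgkh*) under those TMM factors, with only the groups and without the 2 libraries, and between stimulated genotypes 0, and 1 (*Dgkz*) by limma.

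Leaving out each chimera in turn gave 1734 to 4165 genes and 4 to 4 members in WT anergic over naive cells, 1556 to 7819 and 2 to 5 in DKO anergic, 1752 to 5119 and 2 to 4 in WT stimulated, and 2080 to 6486 and 2 to 6 in DKO stimulated cells. Between genotypes it gave 129 to 2685 genes in anergic, 9 to 52 in naive and 24 to 190 in stimulated cells, 12 to 941 for the anergic change and 0 to 4 for the stimulated change, with 0 to 0 members in each.

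Sign changes were as follows, on the log2 scale. In WT anergic over naive cells *Dgkz* was 0.0491 under those TMM factors, 0.139 by limma and 0.176 without the 2 libraries, and *Dgke* 0.00933 by limma. Between anergic genotypes *Rasgrp1* was −0.101 under those TMM factors, −0.227 by limma and −0.0863 with only the groups. Between naive genotypes *Dgke* was 0.0943 under those TMM factors, 0.115 by limma and 0.0738 without the 2 libraries. Between stimulated genotypes, without the block *Dgka* was −0.0251 and *Dgkd* −0.00581, *Dgka*, *Dgkd* and *Rasgrp1* were −0.056, −0.0533 and −0.0324 under RLE factors and −0.0559, −0.0534 and −0.0324 by DESeq2, and *Rasgrp2* was 0.223 without the 2 libraries. In the anergic change *Dgke* was 0.0828 under RLE factors and 0.0827 by DESeq2, *Rasgrp1* −0.0283 under those TMM factors and −0.179 by limma, and *Rasgrp2* −0.0544 by limma. In the stimulated change *Dgkh* was 0.16 under RLE factors, 0.161 by DESeq2, 0.217 with no filter, 0.263 with only the groups and 0.271 without the 2 libraries, and *Dgkz* 0.0172 with no filter and 0.0428 with only the groups. Over the fits that left out libraries, *Dgkz* ran from −0.353 to 0.229 in WT anergic and *Dgke* from −0.266 to 0.0426 in WT stimulated over naive cells. Between anergic genotypes *Rasgrp1* ran from −0.0478 to 0.0999 and *Rasgrp2* from −0.3 to 0.0795, and between naive ones *Dgke* from −0.0393 to 0.0738. Between stimulated genotypes *Dgka* ran from −0.12 to 0.366, *Dgkd* from −0.149 to 0.479, *Rasgrp1* from −0.0184 to 0.366 and *Rasgrp2* from −0.346 to 0.259. *Rasgrp2* ran from −0.101 to 0.516 in the anergic change and *Dgkh* from −0.302 to 0.273 in the stimulated change.

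Scaling shifted the median of all genes. From TMM to RLE factors it went from 0.26 to 0.0977 in WT anergic, −0.211 to −0.0718 in DKO anergic and −0.363 to −0.171 in DKO stimulated over naive cells, and from 0.25 to 0.0186 between naive genotypes. DKO stimulated calls split into 2820 higher and 1937 lower, and 2658 and 1092 under RLE factors. Naive genotype calls split 13 and 19, and 10 and 26 under RLE factors, and those of the anergic change 77 and 53, and 86 and 38.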

Other observations

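*Prkca*, which encodes the diacylglycerol-binding kinase PKCα, was the only gene of the pathway lists past the threshold in the contrast of the anergic against the stimulated genotype difference. It was chosen here after its values had been seen. *Prkca* averaged 114 TPM in DKO and 82.1 TPM in WT anergic cells, and 37.1 TPM in DKO and 63.7 TPM in WT stimulated cells. The difference was 1.53 ± 0.32 (SE) on the log2 scale, with an edgeR adjusted p of 0.0243, and was above 0 in 3 of 3 chimeras. Without the 2 WT libraries of chimera 12 it was 1.19 (adjusted p = 0.00612). It missed the threshold with RLE factors (adjusted p = 0.143), without chimera 10 (0.531) and without chimera 11 (0.342), and over its 11 alternatives the adjusted p ran from 0.000728 to 0.531.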
